A study of Rattus norvegicus with 15 samples.

Results

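Hmox1, Nqo1, Cat and Sod2 encode enzymes that limit oxidative damage, and their transcripts were followed in rat bone marrow mesenchymal stem cells, stromal cells that grow attached to the dish and can become fat or bone-forming cells. They were chosen by name, as 4 of the 34480 rows of the count table: ENSRNOG00000014117 for Hmox1, ENSRNOG00000012772 for Nqo1, ENSRNOG00000008364 for Cat and ENSRNOG00000019048 for Sod2. The table itself carries no symbols, and the reference used here holds no Ensembl identifiers, so the pairing of identifier and symbol was taken as given with the selection. All cells came from Sprague-Dawley rats, an outbred strain, and were grown to confluence at passage 3 to 6. Adi_ASA cells were kept in adipogenic differentiation medium with aspirin (acetylsalicylic acid, ASA, an inhibitor of cyclooxygenases) and Adi cells in that medium alone. Ost_ASA cells were kept in osteogenic differentiation medium with aspirin and Ost cells in that medium alone, while Control cells were untreated. Each of the 5 groups had 3 libraries. The sources used here give neither the aspirin dose, the makeup of the media and the time in culture, nor whether replicates were separate animals or dishes. A difference from Control or between the media may therefore also hold time in culture, which cannot be told apart from the medium. The same holds for a difference between the aspirin effects in the media. The p-values rest on a spread between libraries that may be technical only.

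Superoxide made in mitochondria is turned into hydrogen peroxide by the manganese superoxide dismutase that Sod2 encodes. Catalase, the product of Cat, breaks hydrogen peroxide down to water and oxygen, chiefly in peroxisomes. Hmox1 encodes heme oxygenase 1, the inducible enzyme that opens the heme ring and releases iron, carbon monoxide and biliverdin. Nqo1 encodes a quinone oxidoreductase that reduces quinones without passing through reactive semiquinones. In mammals Hmox1 and Nqo1 are textbook targets of the transcription factor NRF2, which the adaptor KEAP1 holds at low levels until oxidants or electrophiles release it. Hmox1 is in addition repressed by BACH1, and Sod2 is known to respond to inflammatory signals through NF-kappaB.

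Libraries held 18373289 to 22817858 counted reads, and 15543 genes, all 4 members among them, had enough reads to be tested. Levels are given as CPM, counts per 1000000 reads after scaling of the libraries by the trimmed mean of M-values (TMM), with factors of 0.911 to 1.07. The lowest count of any member in any library was 900, for Nqo1 in Control, which gives a counting error of 3.33%. The coefficient of variation between replicates ran from 0.665%, for Nqo1 in Adi_ASA, to 13.3%, for Cat in Adi. In bulk RNA, fewer cells that express a gene and less RNA per cell cannot be told apart. The labelled cell type could not be checked, because the 29 marker genes listed for marrow stromal, fat, bone, macrophage, endothelial and erythroid cells could not be matched to identifiers, and neither could the 51 other antioxidant genes listed.

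The 4 genes did not move as a group. Nqo1 was higher in both media than in untreated cells and higher again with aspirin in both. Cat was higher with aspirin in adipogenic medium. In osteogenic medium, Hmox1 and Cat were lower than in untreated cells. Sod2 was lower than in untreated cells in both media, while neither Hmox1 nor Sod2 passed the test for aspirin in either medium. A call means an adjusted p under 0.05 in edgeR's quasi-likelihood test, adjusted by Benjamini-Hochberg over all 15543 genes. Log2 fold changes are given with their standard error (SE) and 95% interval.

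**Figure D1:**
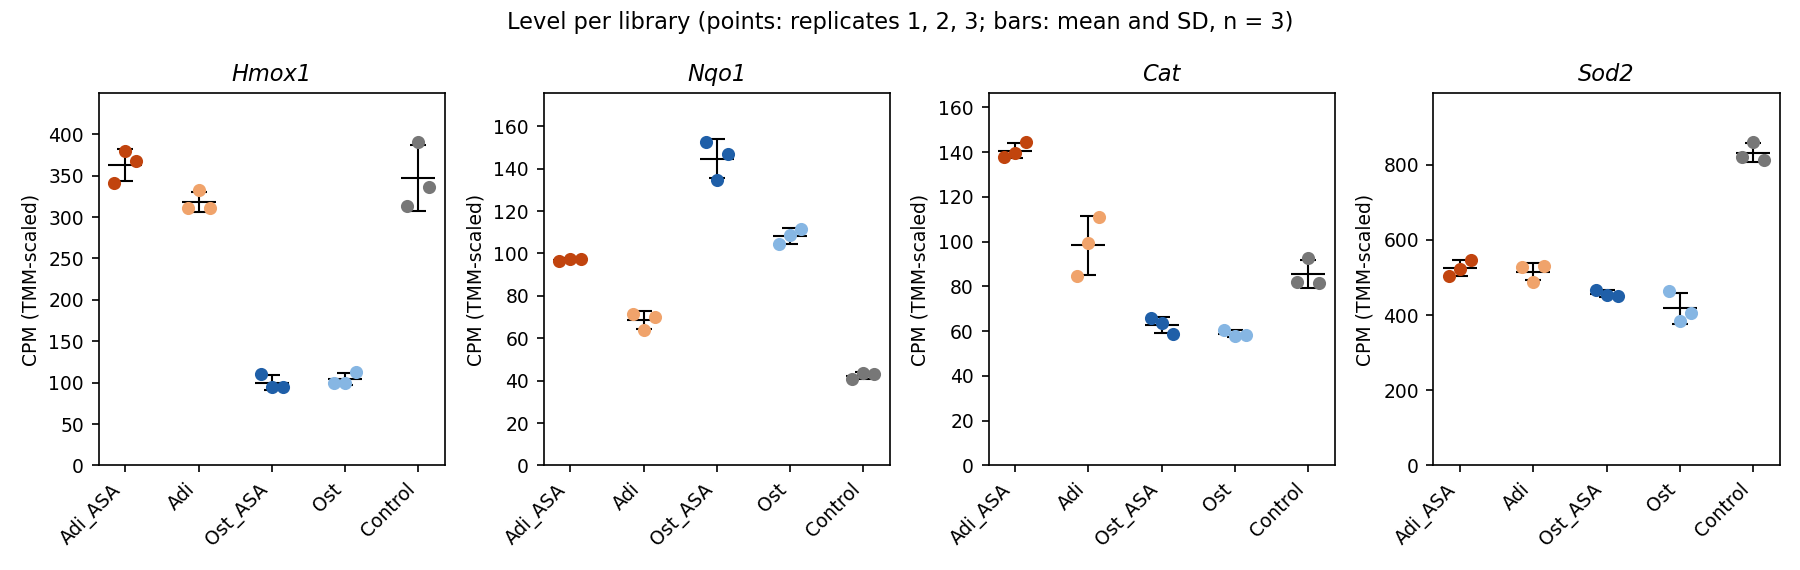
Level of each gene in CPM (y axis, from 0) in every library of the 5 groups (x axis). Points are replicates 1 to 3 from left to right, and bars give the mean and SD of 3 libraries. Hmox1 sits at 94.2 to 112 CPM in the 6 osteogenic libraries and at 310.5 to 391 CPM in all others, while Nqo1 is lowest in Control and highest in Ost_ASA.

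Promoters are shown for every member with a sequence entry, which are Nqo1, Cat and Sod2, while Hmox1 has none. The sequences are those of RefSeq on the assembly GRCr8, from 250 bases before to 50 bases after the start of each gene, 5′ to 3′ on the gene's strand, and 3 of the 4 genes have an entry. Capitals mark matches on either strand to 4 motifs: TGACNNNGC, the core of the antioxidant response element that NRF2 binds, the CCAAT box CCAAT, the GC box GGGCGG and the TATA box TATAAA. No matches overlap another.
Nqo1, chr19:52220218-52220517, minus strand: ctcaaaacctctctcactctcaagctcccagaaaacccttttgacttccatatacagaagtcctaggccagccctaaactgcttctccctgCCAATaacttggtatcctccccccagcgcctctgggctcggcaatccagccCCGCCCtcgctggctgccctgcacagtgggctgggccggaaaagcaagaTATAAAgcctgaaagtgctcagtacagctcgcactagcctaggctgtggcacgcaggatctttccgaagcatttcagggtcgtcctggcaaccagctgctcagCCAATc
Cat, chr3:110329477-110329776, minus strand: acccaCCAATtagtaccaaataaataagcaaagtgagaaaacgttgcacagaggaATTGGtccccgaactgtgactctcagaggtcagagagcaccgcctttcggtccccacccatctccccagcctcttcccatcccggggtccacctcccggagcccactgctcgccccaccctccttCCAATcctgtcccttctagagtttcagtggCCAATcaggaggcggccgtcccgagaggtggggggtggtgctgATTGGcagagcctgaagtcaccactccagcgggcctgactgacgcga
Sod2, chr1:50050119-50050418, minus strand: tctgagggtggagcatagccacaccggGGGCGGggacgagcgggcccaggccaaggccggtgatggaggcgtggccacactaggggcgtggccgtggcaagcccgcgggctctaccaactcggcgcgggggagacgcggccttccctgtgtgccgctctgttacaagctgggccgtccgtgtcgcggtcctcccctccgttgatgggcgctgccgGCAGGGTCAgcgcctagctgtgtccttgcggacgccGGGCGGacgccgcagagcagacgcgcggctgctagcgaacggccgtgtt
Nqo1 has a TATA box that begins 59 bases before the start, 2 CCAAT boxes and 1 GC box. The Cat window holds 5 CCAAT boxes and no match to the other motifs. Sod2 has 2 GC boxes and 1 match to the antioxidant response element core, on the opposite strand, and neither the Nqo1 nor the Cat window has such a match. Of all 33469 rat promoter windows of this length, 12.1% hold the antioxidant response element core, 37.5% a CCAAT box, 33.1% a GC box and 14.2% a TATA box. Each share counts windows with at least 1 match, so it does not say how common several matches are. All motifs except TGACNNNGC were added after seeing the sequences. A match describes the letters in the window and is not a measured binding site. Bases beyond the window were not searched, so the lack of a match does not show that a gene has no such element.

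Nqo1 was the member that rose in every comparison with untreated cells and with aspirin. It had 71.5, 63.9 and 70.3 CPM in the 3 Adi libraries, against 40.6, 43.5 and 43.0 CPM in Control. All Adi libraries lay above all Control libraries, and the fitted difference was 0.69 on the log2 scale, or 1.62-fold (SE 0.059, 95% interval 0.57 to 0.82, edgeR adjusted p = 3.64e-09). In osteogenic medium the level was higher still, at 105, 109 and 112 CPM in Ost, against the same Control libraries. That is 2.56-fold (log2 fold change 1.35, SE 0.059, 95% interval 1.23 to 1.48, edgeR adjusted p = 9.18e-15). Compared directly, Adi lay below Ost (log2 fold change -0.66, edgeR adjusted p = 1.6e-09).

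Nqo1 was higher with aspirin in both media. With aspirin in adipogenic medium the 3 libraries had 96.3, 97.4 and 97.5 CPM in Adi_ASA, against 71.5, 63.9 and 70.3 CPM in Adi. The libraries did not overlap, and Nqo1 rose 1.42-fold (log2 fold change 0.50, SE 0.058, 95% interval 0.38 to 0.62, edgeR adjusted p = 3.18e-05). In osteogenic medium the values were 153, 135 and 147 CPM in Ost_ASA, against 105, 109 and 112 CPM in Ost. Here too every library with aspirin lay above every library without it, and the rise was 1.34-fold (log2 fold change 0.42, SE 0.056, 95% interval 0.30 to 0.54, edgeR adjusted p = 0.000141). The rises in the 2 media differed by 0.08 on the log2 scale, adipogenic minus osteogenic, with a 95% interval of -0.09 to 0.25 (edgeR adjusted p = 0.736), so a difference of up to 0.25 is compatible with these libraries. A larger fitted rise, or one as large, was found for 6.06% of all genes in adipogenic medium and for 7.84% in osteogenic medium.

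From high to low, the 5 groups stood in a single order for Nqo1, with no overlap between neighbours: Ost_ASA at 145 ± 9.10 CPM (SD, n = 3), Ost at 108 ± 3.65, Adi_ASA at 97.1 ± 0.645, Adi at 68.6 ± 4.08 and Control at 42.4 ± 1.58. Between the ends of this order, Ost_ASA was 3.42-fold above Control (edgeR adjusted p = 9.13e-17), and Adi_ASA was 2.29-fold above Control (edgeR adjusted p = 8.84e-13).

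Cat rose with aspirin in adipogenic medium. It had 138, 140 and 145 CPM in Adi_ASA, against 84.8, 99.4 and 111 CPM in Adi. The Adi libraries were widely spread, with replicate 3 the highest, but all lay below all Adi_ASA libraries. The rise was 1.43-fold (log2 fold change 0.52, SE 0.075, 95% interval 0.36 to 0.67, edgeR adjusted p = 0.000363), and it was 0.42 to 0.61 on the log2 scale when any 1 of the 6 libraries was left out. In osteogenic medium Cat had 66.0, 63.6 and 58.6 CPM in Ost_ASA, against 60.6, 57.8 and 58.1 CPM in Ost. Those groups overlap, and the difference of 0.09 (SE 0.077, 95% interval -0.07 to 0.25) was not called (edgeR adjusted p = 0.661). The difference between the aspirin effects, adipogenic minus osteogenic, was 0.42 (SE 0.11, 95% interval 0.20 to 0.65, edgeR adjusted p = 0.0338). That call was lost when any 1 library was left out other than Adi replicate 3 or Ost_ASA replicate 1, with 0.33 to 0.52 over the 12 omissions and an adjusted p of up to 0.096.

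Without aspirin, Cat stood above Control in adipogenic and below it in osteogenic medium. It had 84.8, 99.4 and 111 CPM in Adi and 60.6, 57.8 and 58.1 CPM in Ost, against 81.9, 92.7 and 81.7 CPM in Control. Adi, at 98.3 ± 13.0 CPM (SD, n = 3), overlapped Control, at 85.4 ± 6.30 CPM, and was higher by 0.20 (SE 0.076, 95% interval 0.05 to 0.36, edgeR adjusted p = 0.0319). This call was lost without Adi replicate 2 (0.20) or 3 (0.11), without Control replicate 1 (0.17) or 3 (0.17), and when only these 2 groups were fitted (0.20, edgeR adjusted p = 0.107). Ost, at 58.8 ± 1.57 CPM, lay below all Control libraries, a fall to 0.689 of the Control level (log2 fold change -0.54, SE 0.077, 95% interval -0.70 to -0.38, edgeR adjusted p = 2.75e-06). In the order of levels, Ost_ASA and Ost overlapped, as did Adi and Control, while Ost_ASA lay below Control and Adi_ASA above Adi. Adi_ASA was 1.65-fold above Control (edgeR adjusted p = 1.26e-07).

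**Figure D2:**
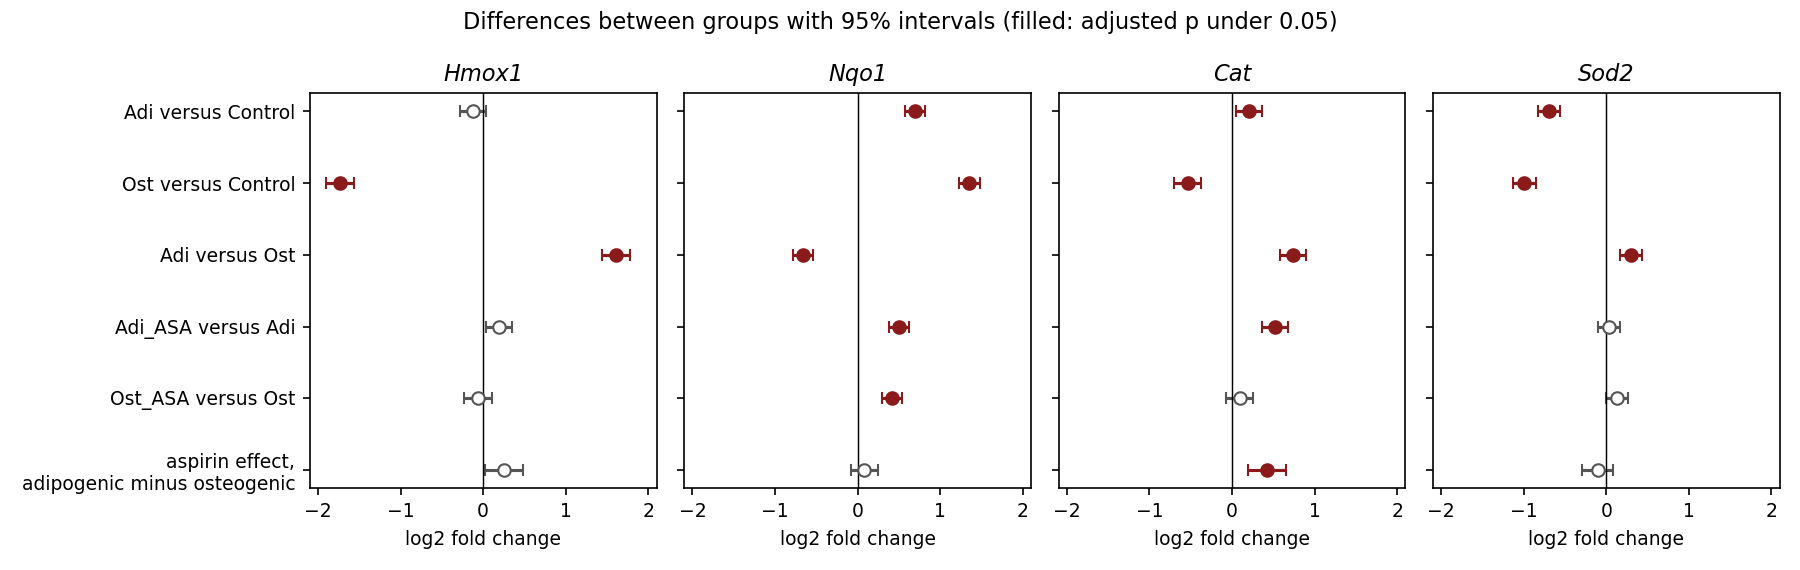
Log2 fold change (x axis) of each gene in the 6 comparisons (y axis), with 95% intervals from the edgeR fit; filled points passed an adjusted p of 0.05. For aspirin, the filled points are Nqo1 in both media and Cat in adipogenic medium, and the difference between media is filled for Cat alone.

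Hmox1 was lower in osteogenic medium than in untreated cells. It had 99.8, 100.1 and 112 CPM in Ost, against 313, 391 and 336 CPM in Control. No library overlapped, and the level in Ost was 0.30 of that in Control (log2 fold change -1.74, SE 0.080, 95% interval -1.90 to -1.57, edgeR adjusted p = 6.25e-14). In adipogenic medium Hmox1 had 310.5, 332 and 311 CPM in Adi, which overlapped Control, and the difference of -0.12 (95% interval -0.29 to 0.04) was not called (edgeR adjusted p = 0.196). Set against each other, Adi was 3.06-fold above Ost (edgeR adjusted p = 2.57e-13).

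With aspirin in adipogenic medium, Hmox1 had 341, 380 and 368 CPM in Adi_ASA, against 310.5, 332 and 311 CPM in Adi. All libraries with aspirin lay above all without, but the difference of 0.19 (SE 0.077, 95% interval 0.03 to 0.35) did not pass once adjusted over all genes (edgeR adjusted p = 0.197). The edgeR adjusted p was 0.0505 with only Adi_ASA and Adi fitted and 0.0692 with libraries scaled by their totals alone. No alternative run gave a call. In osteogenic medium the values were 110.0, 94.2 and 94.8 CPM in Ost_ASA, against 99.8, 100.1 and 112 CPM in Ost. These overlap, with a difference of -0.06 (95% interval -0.23 to 0.10, edgeR adjusted p = 0.80), and Hmox1 in Ost_ASA remained at 0.288 of Control (edgeR adjusted p = 3.52e-14). Adi_ASA differed from Control by 0.07 (95% interval -0.09 to 0.23, edgeR adjusted p = 0.519), and the libraries overlapped. The difference between the aspirin effects was 0.25 (95% interval 0.02 to 0.48, edgeR adjusted p = 0.305). In the order of levels the groups formed 2 sets without overlap, Ost_ASA and Ost below, Adi_ASA, Adi and Control above, and neighbours within each set overlapped.

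Sod2 was lower in both media than in untreated cells. It had 528, 489 and 529.7 CPM in Adi, against 821, 861 and 814 CPM in Control. The groups lie far apart, and Adi fell to 0.62 of Control (log2 fold change -0.69, SE 0.064, 95% interval -0.82 to -0.56, edgeR adjusted p = 1.45e-08). In Ost it had 464, 383 and 407 CPM, a fall to 0.503 of the same Control libraries (log2 fold change -0.99, SE 0.065, 95% interval -1.13 to -0.86, edgeR adjusted p = 1.07e-11). Between the media, Adi was 1.23-fold above Ost (log2 fold change 0.30, SE 0.064, edgeR adjusted p = 0.000303), a difference that came to 0.15 when libraries were scaled by their totals alone (edgeR adjusted p = 0.0412).

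No call was made for Sod2 with aspirin. In adipogenic medium it had 505, 523 and 548 CPM in Adi_ASA, against 528, 489 and 529.7 CPM in Adi, a difference of 0.03 whose 95% interval of -0.11 to 0.16 spans 0 (edgeR adjusted p = 0.886). Its sign turned without Adi replicate 2 (-0.0086) or Adi_ASA replicate 3 (-0.0035). In osteogenic medium it had 467, 453 and 452 CPM in Ost_ASA, against 464, 383 and 407 CPM in Ost. Ost replicate 1 overlapped the libraries with aspirin, and the difference of 0.13 (95% interval -0.0045 to 0.26) was not called (edgeR adjusted p = 0.361). These intervals leave room for a rise of up to 1.12-fold in adipogenic and 1.20-fold in osteogenic medium. With 1 library left out, the osteogenic difference was 0.07 to 0.21 and was not called. It was highest without Ost replicate 1 (edgeR adjusted p = 0.0802). The difference between the aspirin effects was -0.10 (95% interval -0.29 to 0.09, edgeR adjusted p = 0.702). In the order of levels Ost_ASA and Ost overlapped, as did Adi_ASA and Adi, and the adipogenic pair lay between the osteogenic pair and Control.

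Calls were common for the media, so the members' counts say little there. With adipogenic medium, 3 of the 4 members were called, against 48.9% of all genes tested, and their median log2 fold change was 0.04, against -0.01 over all genes. In Ost versus Control, 4 of 4 were called, against 68.9%, with a median of -0.76, against -0.02 over all genes. In size, 16.6% of all genes changed more than Hmox1 there, 22.0% more than Nqo1, 30.3% more than Sod2 and 50.4% more than Cat. Adi versus Ost also gave calls for 4 of 4, against 66.5% of all genes. For aspirin, calls were rare: 2 of 4 members were higher in Adi_ASA than in Adi, where 4.34% of all genes were called and 2.49% were higher. In Ost_ASA versus Ost 1 of 4 was higher, where 3.63% of all genes were called and 2.34% were higher. The median log2 fold change of the members was 0.35, against 0.0017 over all genes, in adipogenic medium and 0.11, against 0.003, in osteogenic medium. The difference between the aspirin effects was called for 1 of 4 members, against 2.83% of all genes. In the 3 further pairs of groups, 3 of 4 were called in Adi_ASA versus Control (44.4% of all genes), 4 of 4 in Ost_ASA versus Control (69.3%) and 4 of 4 in Adi_ASA versus Ost_ASA (65.7%). In the last of these pairs the call for Sod2, at a log2 fold change of 0.20 (edgeR adjusted p = 0.00941), was lost without Adi_ASA replicate 3 (0.17, edgeR adjusted p = 0.0521) and with library totals in place of TMM factors (0.12, edgeR adjusted p = 0.0893). No member had fewer than 900 reads in any library, and the share of calls among genes with like counts was not computed. The comparisons share libraries, and the 4 genes were chosen by name with earlier results of these data known. These counts therefore describe the members alone.

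**Figure D3:**
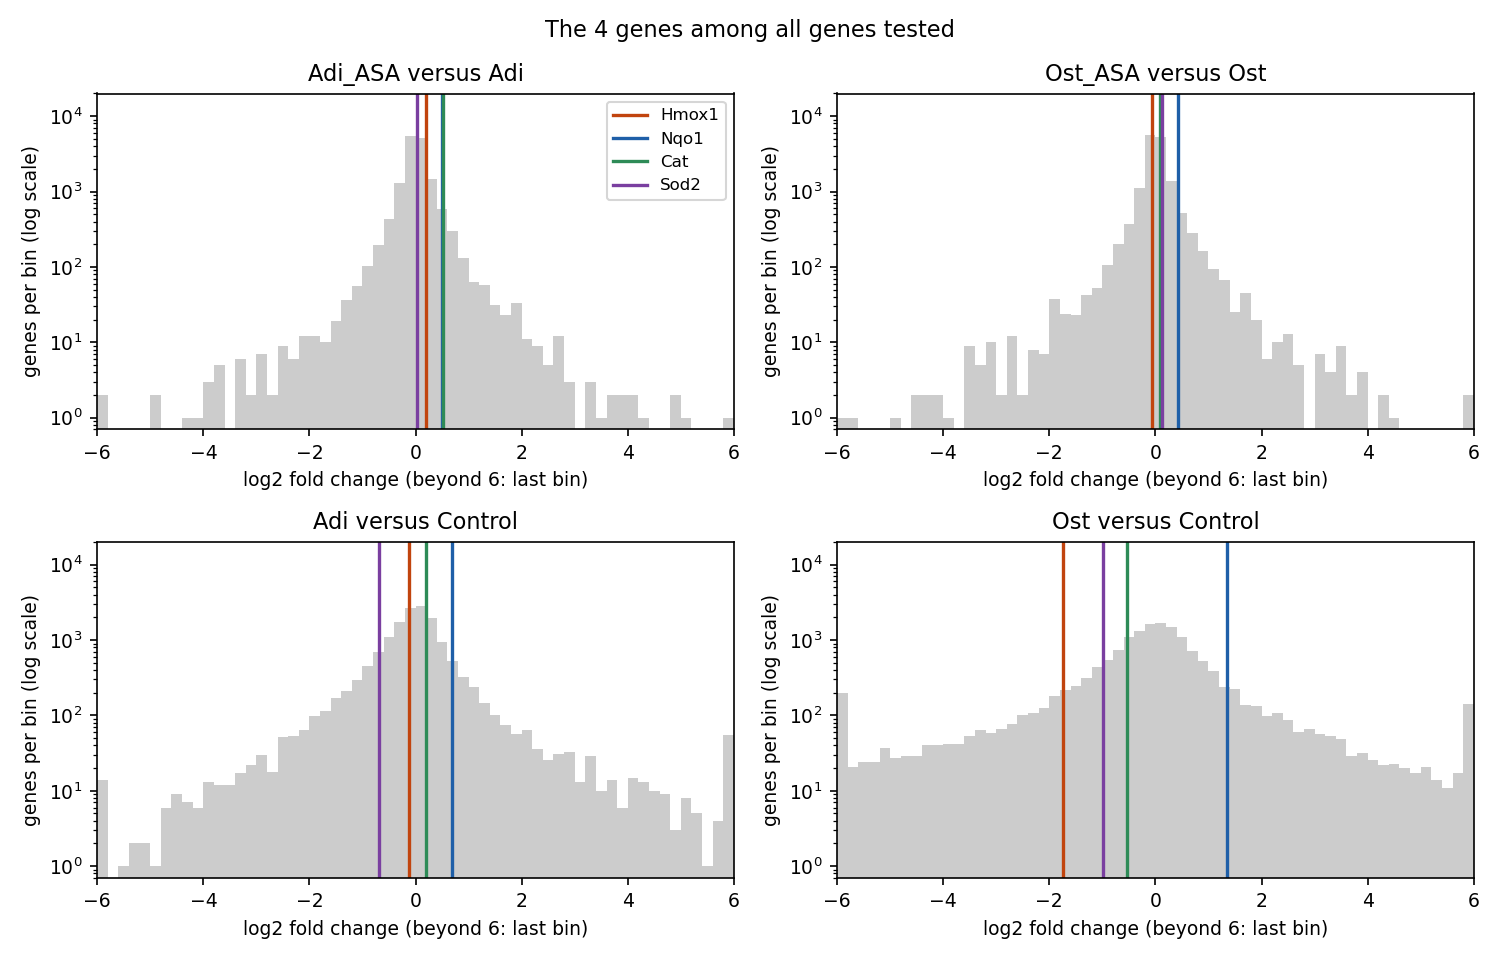
Distribution of log2 fold changes over all 15543 genes (x axis, bins of 0.2; y axis, genes per bin on a log scale) with the 4 genes as lines, for aspirin in each medium and for each medium against Control. In the aspirin panels Nqo1, and in adipogenic medium Cat beside it at 0.50 and 0.52, lie to the right of the centre.

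Scaling of the libraries bears on the smaller differences. With library totals in place of TMM factors, the median of all genes in Adi versus Control moved to -0.20, and called genes split into 2168 higher and 6316 lower, against 3810 and 3793 with TMM. Cat, at 0.013, was then not called, and Hmox1, at -0.31, was (edgeR adjusted p = 0.00199). Such a change shifts all genes of a comparison alike, so it leaves the members' places relative to the median as they were by construction, at -0.12 for Hmox1, 0.70 for Nqo1, 0.21 for Cat and -0.68 for Sod2. In Adi_ASA versus Adi the same change gave 753 higher and 168 lower calls, against 387 and 288 with TMM.

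Ratios of 2 members within a library do not depend on scaling, and they were set beside the fold changes. The log2 ratio of Hmox1 to Nqo1 counts was -0.07, -0.12 and 0.01 in Ost, against 2.95, 3.17 and 2.97 in Control, a difference of -3.09 with no overlap. In adipogenic medium it averaged 2.21 ± 0.14 in Adi, against 3.03 ± 0.12 in Control (SD, n = 3). With aspirin it was lower in both media, at 1.90 ± 0.070 in Adi_ASA, against 2.21 ± 0.14 in Adi, and at -0.54 ± 0.083 in Ost_ASA, against -0.06 ± 0.064 in Ost, again with no overlap. The log2 ratio of Nqo1 to Sod2 was higher by 1.38 in Adi and 2.35 in Ost relative to Control. With aspirin it was higher by 0.48 in adipogenic and 0.28 in osteogenic medium. Nqo1 is the numerator here and the denominator before, so its rise alone moves these ratios in opposite directions. The log2 ratio of Nqo1 to Cat was -0.54 ± 0.028 in Adi_ASA and -0.51 ± 0.23 in Adi, which overlap, and 1.21 ± 0.12 in Ost_ASA and 0.88 ± 0.084 in Ost. Each of the 24 ratio comparisons was tested by an exact two-sided permutation test, which cannot give a p under 0.1 with 3 libraries against 3 (adjusted p = 0.126 at the smallest), so none passes a threshold of 0.05.

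**Figure D4:**
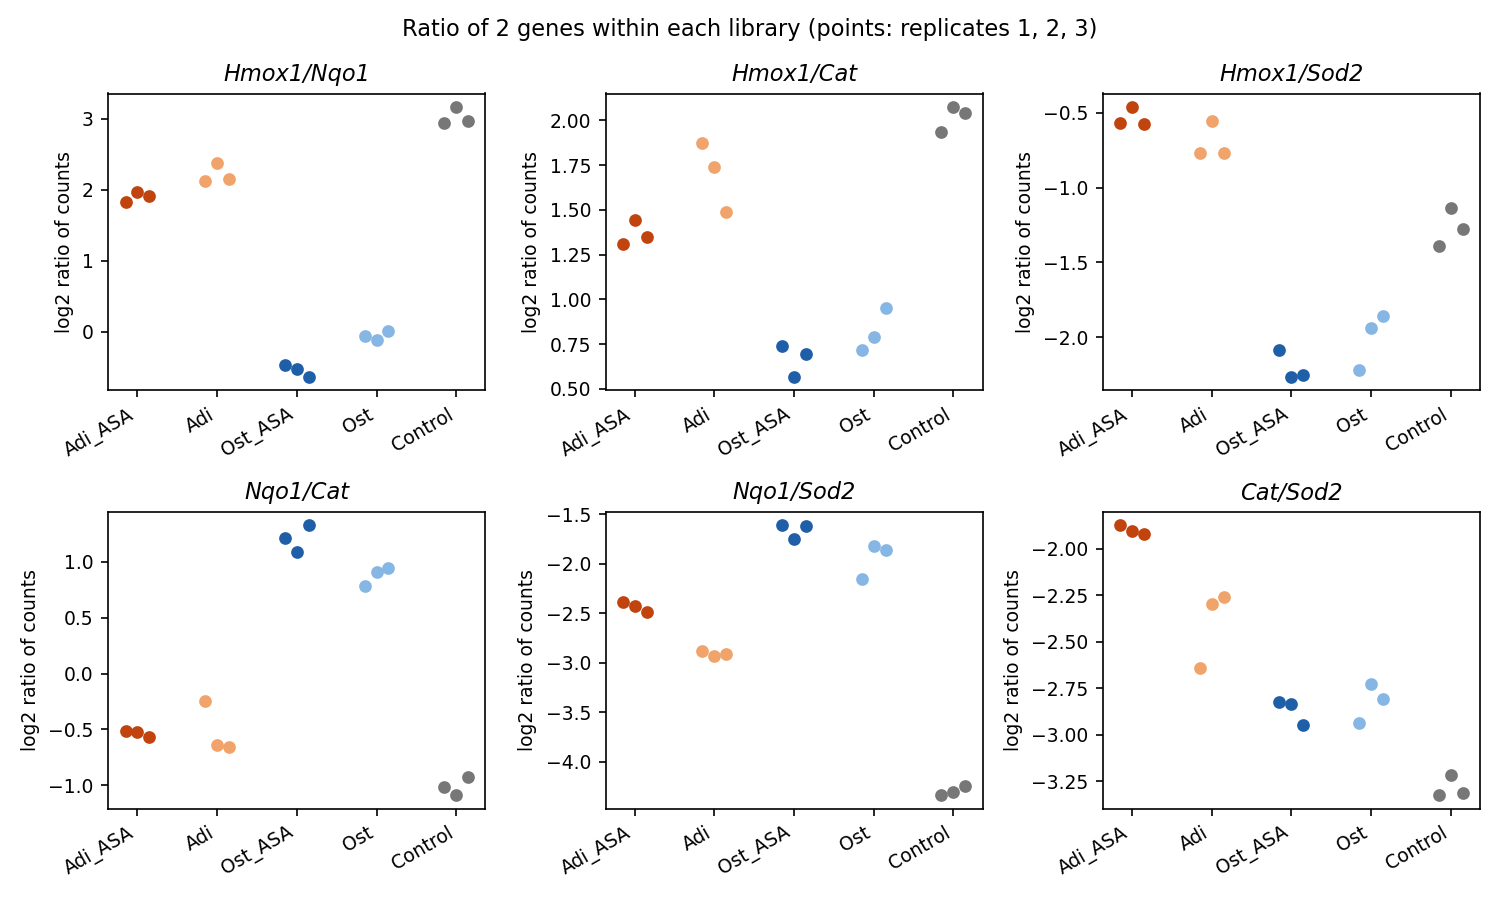
Log2 ratio of the counts of 2 genes in each library (y axis) for the 6 gene pairs in the 5 groups (x axis), with replicates 1 to 3 from left to right. Hmox1/Nqo1 runs between -0.63 and 0.01 in the osteogenic libraries and is above 1.82 in all others.

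The gene whose log2 CPM was most like that of each member over the 15 libraries was found among 14209 others with an Ensembl identifier, none of which has a symbol here. For Nqo1 it was ENSRNOG00000007034 (Pearson r 0.983), which averaged 57.5 CPM in Adi_ASA, 42.8 in Adi, 95.7 in Ost_ASA, 75.5 in Ost and 22.8 in Control. Cat was most like ENSRNOG00000043201 (r 0.979), Sod2 most like ENSRNOG00000016967 (r 0.982) and Hmox1 most like ENSRNOG00000000866 (r 0.995). An r above 0.95 was shared with Hmox1 by 872 genes, with Sod2 by 68, with Nqo1 by 31 and with Cat by 25. The 15 libraries fall into 5 groups, so they are not 15 independent points, and all genes share the same libraries and scaling.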

How the data were processed

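The authors deposited 1 table of read counts, whole numbers per gene and library that were not normalised, with 34480 rows and 15 columns, each matched to a sample by its title. The submitters' processing notes name the build Rnor_6.0 and the tools DESeq 1.18.0, HTSeq 0.9.1 and HISAT2 2.0.4. The sources used here give no roles, settings, strand, annotation release or treatment of reads shared between genes, so reads shared with a similar or overlapping gene could raise or lower a member's count. Totals were 18373289 to 22817858 per library. Replicates of a group differed beyond sampling noise in all 15 pairs (chi-square over degrees of freedom, 5.41 to 13.5), and each library was counted once.

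Tests were run in edgeR 4.0.16 (R 4.3.3): filterByExpr, TMM, 1 quasi-likelihood model of the 5 group means over all libraries with robust estimation, 6 comparisons taken from the design and 3 more added later, after seeing the data, with Benjamini-Hochberg adjustment over all 15543 genes kept. SE is the size of the log2 fold change divided by the square root of F. Alternatives were RLE factors, no filter, DESeq2 1.42.0, the compared groups alone, a replicate block, each library left out and, chosen after seeing the data, library totals. Beyond the 4 members, the rule for naming genes took the gene most like each member by Pearson r of log2 CPM (prior count 2). The members, lists and tests were chosen with earlier results of these data known, and all promoter motifs except TGACNNNGC were added after seeing the sequences.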

Additional observations from a re-analysis of the deposited data

Results flagged for a closer look

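The effect of aspirin on Cat differed between the media by a test of the difference itself: 0.4247 on the log2 scale, adipogenic minus osteogenic (SE 0.11, edgeR adjusted p = 0.0338). Cat rose by 0.52 with aspirin in adipogenic medium and had 0.09 in osteogenic medium, where it was not called. All 3 Adi_ASA libraries lay above all 3 Adi libraries, and in osteogenic medium the libraries overlapped. Over the 18 alternatives the difference was 0.33 to 0.52, with an adjusted p of 0.00524 to 0.096.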

How the results depend on the processing

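Over all alternatives run, Nqo1 kept its direction and its call in Adi and Ost versus Control and in Adi versus Ost. It also kept both with aspirin in both media. The same held for Sod2, Hmox1 and Cat in Ost versus Control and for Cat with aspirin in adipogenic medium. With library totals, Hmox1 in Adi versus Control was called at -0.31 (edgeR adjusted p = 0.00199) and Cat lost its call at 0.013; the median of all genes moved by a like amount. Cat in Adi versus Control also lost its call with only the groups compared (0.2048), and was 0.1091 to 0.2989 with 1 library left out. The difference between its aspirin effects in the media was 0.3314 to 0.5216 and lost its call in 10 of 12 omissions. In Adi_ASA versus Ost_ASA, Sod2 (0.20) lost its call with library totals (0.1231) and without Adi_ASA replicate 3 (0.1684), and in Adi versus Ost, at 0.30, it was 0.1486 with library totals and still called. Sod2 in Adi_ASA versus Adi was -0.0086 to 0.056 with 1 library left out. Hmox1 in Adi_ASA versus Control, 0.07 and not called, was -0.0666 with library totals and -0.0013 to 0.16 with 1 library left out.

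The count of genes called in Adi_ASA versus Adi, 675, was 284 to 529 with 1 library left out, and the main count was over 1.5 times the count without Adi replicate 2 (398) or 3 (410) or Adi_ASA replicate 1 (424), 2 (417) or 3 (284). For Ost_ASA versus Ost, 564, it was 335 to 536, lowest without Ost replicate 1 (335), Ost replicate 2 (348) or Ost_ASA replicate 3 (357). For the difference of aspirin effects, 440, it was 288 to 427, lowest without Adi_ASA replicate 3 (288). With a replicate block Nqo1 had 0.5024 and Cat 0.5181 in Adi_ASA versus Adi, and no member's call changed, although the difference for Cat came to an edgeR adjusted p of 0.0499. No sign of pairing by replicate number was seen (correlation of deviations -0.07 to 0.04 over 30 pairs of the same number). That does not show that the libraries were unpaired.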

Other observations

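The 3 Adi_ASA libraries had Nqo1 levels within 96.3 to 97.5 CPM, a coefficient of variation of 0.665%, which is below the counting error of 2.25% to 2.41% that their 1729 to 1977 reads give. The tests use the spread estimated over all 15 libraries.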
